A study of Mus musculus with 12 samples.

Results

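Heat shock proteins of the HSP70 and HSP90 families were followed here through 10 genes in the amygdala of C57/BL6 mice: Hspa1a, Hspa1b, Hspa8 and Hspa5 of the HSP70 family, Hsp90aa1, Hsp90ab1 and Hsp90b1 of the HSP90 family, the co-chaperones Dnajb1 and Hsph1, and Hsf1, the transcription factor of the heat shock response. They were listed by symbol, with earlier results of these mice known, and each had 1 row among the 47729 genes of the deposited table. All 10 had at least 10 reads in total and were among the 26963 genes tested. The series holds bilateral amygdala tissue of 12 age-matched female C57/BL6 mice, an inbred and near-isogenic strain, with 1 poly(A)-selected, stranded RNA library per animal. The labels name no mutation and no drug for any mouse. Each had gone through 3 behavior tests before rapid decapitation without anesthesia. These were the EPM, a raised cross with open and walled arms, the LD, a box with a lit and a dark chamber, and the SIT, a social test beside an unfamiliar mouse. GEO's labels give 11 of them a predicted anxiety state: less anxious (mice 3, 7 and 12), anxious (mice 1, 4, 8 and 11) or more anxious (mice 2, 6, 9 and 10). Mouse 5 has none, and the paper left it out as a clear outlier in a principal component analysis of expression. The states were cut from the PC2 scores of these same libraries, so a test of a gene between states is not independent of how the states were made. The behavior values were measured apart from the RNA. The paper chose PC2 for its correlation with the EPM and LD measures, however, so slopes on those measures are not independent of the states.

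Chaperones of the HSP70 family bind exposed hydrophobic stretches of unfolded proteins and release them in a cycle driven by ATP. J proteins such as DNAJB1 start that cycle by stimulating ATP hydrolysis, and nucleotide exchange factors such as HSPH1 reset it. HSP90 proteins act later, on nearly folded clients such as kinases and steroid hormone receptors, the glucocorticoid receptor among them. In the cytosol HSPA8 is present in unstressed cells, and in neurons it uncoats clathrin vesicles, while Hspa1a and Hspa1b encode the stress-inducible forms. HSF1 is held inactive by chaperones and, once freed, binds heat shock elements, which are inverted repeats of GAA, to raise Hspa1a, Hspa1b, Hsph1, Dnajb1 and Hsp90aa1. HSPA5 (BiP) and HSP90B1 (GRP94) serve the same purposes inside the endoplasmic reticulum (ER) and are raised by the unfolded protein response through ER stress response elements.

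The promoters shown are those of the inducible pair Hspa1a and Hspa1b, whose levels moved together, with Hsph1 as an example of a 3-unit heat shock element and Hspa5 as an example of an ER stress response element. Promoters of 6 of the 10 members were listed, in 8 windows since Hsph1 and Dnajb1 have 2 each, from RefSeq on GRCm38.p6. Each is 300 bases long (250 before and 50 after the RefSeq start site), and the first listed window of Hsph1 is shown. The capitals mark heat shock elements of 2 units (GAANNTTC or TTCNNGAA) or 3 units (GAANNTTCNNGAA or TTCNNGAANNTTC, which contain 2-unit matches) or ER stress response elements (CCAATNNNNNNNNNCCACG, which contain a CCAAT box), searched on both strands. The Hspa1a promoter lies at chr17:34972107-34972406, that of Hspa1b at chr17:34959189-34959488 and that of Hsph1 at chr5:149636287-149636586, all on the minus strand, and that of Hspa5 at chr2:34771840-34772139 on the plus strand.
Hspa1a: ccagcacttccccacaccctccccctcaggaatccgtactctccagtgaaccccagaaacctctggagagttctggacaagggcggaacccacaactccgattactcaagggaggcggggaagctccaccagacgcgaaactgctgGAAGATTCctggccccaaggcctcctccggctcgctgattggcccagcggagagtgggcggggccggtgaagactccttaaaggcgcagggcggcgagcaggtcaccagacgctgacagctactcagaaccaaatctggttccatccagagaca
Hspa1b: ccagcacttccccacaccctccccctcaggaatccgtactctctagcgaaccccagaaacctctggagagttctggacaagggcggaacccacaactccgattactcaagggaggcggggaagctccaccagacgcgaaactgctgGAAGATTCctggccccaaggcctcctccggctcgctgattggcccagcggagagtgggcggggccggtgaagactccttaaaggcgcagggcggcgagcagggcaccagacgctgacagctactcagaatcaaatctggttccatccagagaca
Hsph1: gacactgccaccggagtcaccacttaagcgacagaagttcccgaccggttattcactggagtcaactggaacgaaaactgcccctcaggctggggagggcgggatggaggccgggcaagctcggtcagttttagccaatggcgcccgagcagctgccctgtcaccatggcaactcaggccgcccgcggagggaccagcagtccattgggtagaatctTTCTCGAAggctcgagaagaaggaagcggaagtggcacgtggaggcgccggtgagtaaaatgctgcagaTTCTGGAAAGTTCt
Hspa5: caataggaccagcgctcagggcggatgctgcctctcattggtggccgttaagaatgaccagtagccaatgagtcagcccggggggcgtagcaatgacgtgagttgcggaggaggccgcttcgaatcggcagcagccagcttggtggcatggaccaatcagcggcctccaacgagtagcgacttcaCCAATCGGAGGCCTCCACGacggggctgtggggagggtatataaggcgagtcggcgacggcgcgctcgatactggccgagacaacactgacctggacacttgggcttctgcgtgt

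The Hspa1a and Hspa1b promoters were identical at 296 of 300 bases (98.7%). Counted from 1 at the 5′ end, the Hspa1b promoter differed from that of Hspa1a by C44T, T47C, T249G and C276T. None of the 4 differences lay in the heat shock element that both carry. With the RefSeq start site of each window as 0, this 2-unit element covered bases -104 to -97. For Hspa5, Hsph1, Hsp90b1 and the second Dnajb1 window that start site lies inside the GENCODE span of the gene given with the values below. Negative positions there are thus not all outside the gene. Hsph1 held the only 3-unit element among the listed members, at bases 36 to 48, and a separate 2-unit element at bases -33 to -26. Hspa5 held 1 ER stress response element at bases -65 to -47, and Hsp90b1 held 2. The Dnajb1 windows held neither kind. Of all 32851 listed promoters, 15.1% held a 2-unit element, 0.603% a 3-unit element and 0.119% an ER stress response element. A match describes the letters only and is no evidence of binding in this tissue. Only exact matches to these letters were searched, so elements with mismatches were not counted.

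Libraries held between 31745630 and 45142355 estimated counts in the 11 mice, with overlapping ranges in the 3 states, and all came from 1 sequencing run. Levels below are CPM on edgeR's TMM scale, that is, reads of a gene scaled to the same library size in every mouse. The transcripts had an unequal claim on their reads. Of all 75-base windows in the Hspa1a transcript, 54.2% also occurred in other genes, nearly all of them in Hspa1b, and 55.8% of those of Hspa1b occurred in Hspa1a. The figure was 68.0% for Hspa8 and 53.1% for Hsp90aa1, shared mostly with the pseudogenes Gm15459 and Gm12346, and it was at most 2.14% for each of the other 6. Salmon divided such reads by estimate, so the split between Hspa1a and Hspa1b is less certain than their sum. Each member belongs to bulk tissue, where fewer cells of a type and less RNA per cell cannot be told apart.

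Across the 11 mice the members spanned more than 2 orders of magnitude per length of transcript. Hspa8 led with 751 ± 136 CPM per kb (SD, n = 11), followed by Hsp90ab1 with 605 ± 41.9 and Hsp90aa1 with 355 ± 20.2. The ER members came next, Hsp90b1 with 142 ± 27.3 CPM per kb and Hspa5 with 77.5 ± 7.56, close to Hsph1 with 74.4 ± 6.16. Hsf1 had 17.2 ± 2.05 CPM per kb and Dnajb1 14.3 ± 1.79. The inducible genes were lowest, Hspa1b with 5.65 ± 1.80 and Hspa1a with 5.12 ± 1.23 CPM per kb. Within a mouse, the level of Hspa8 per kb was between 87.5 and 243 times that of Hspa1a. Neighbours whose ranges over mice overlapped were Hspa8 and Hsp90ab1, Hspa5 and Hsph1, Hsf1 and Dnajb1, and Hspa1b and Hspa1a. Dividing by all annotated exon bases rather than by the main transcript put Hsp90ab1 above Hspa8 and Dnajb1 above Hsf1 in all 11 mice. Hsf1, whose annotated exons cover 7099 bases against 2084 in its main transcript, then had a mean of 5.04 CPM per kb. This was the lowest mean of the members, just under Hspa1a (5.12) and Hspa1b (5.65), so the inducible genes were lowest per main transcript only.

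Variation between mice was uneven among the members. On the CPM scale the coefficient of variation was 31.8% for Hspa1b and 24.1% for Hspa1a, above that of 96.5% and 92.0% of the 10354 genes with a mean of at least 10 CPM, whose median was 11.9%. Hsp90aa1, at 5.69%, varied more than only 3.52% of these genes, and Hsp90ab1, at 6.93%, more than 9.42%.

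The question put to the predicted anxiety states was which members differed between less anxious, anxious and more anxious mice. The inducible HSP70 genes were about 1.75-fold higher in more anxious than in less anxious mice, Hsf1 was 1.18-fold higher, and the other 7 members had log2 fold changes between -0.20 and 0.05. None of the 10 members passed an adjusted p of 0.05 in edgeR's quasi-likelihood test of any difference among the states, with PC1 as a covariate. Of all genes tested, 2 did (0.00742%). Unless stated otherwise, every edgeR p for the states below is from this test of the 3 states, including those beside a fold change. Without adjustment, 3 of the 10 members had a p under 0.05, Hspa1a, Hspa1b and Hsph1, against 1712 of all genes (6.35%). This count of 3 dropped to 1 (Hspa1a) without mouse 9. On the same 26963 genes, DESeq2's likelihood ratio test of the same model, an alternative chosen after seeing the data, passed 192 genes and 1 member, Hspa1a, and also gave 3 members an unadjusted p under 0.05. Among the members 4 were higher and 6 lower in more anxious mice, with a median log2 fold change of -0.05, beside 0.00 over all genes tested.

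**Figure D1:**
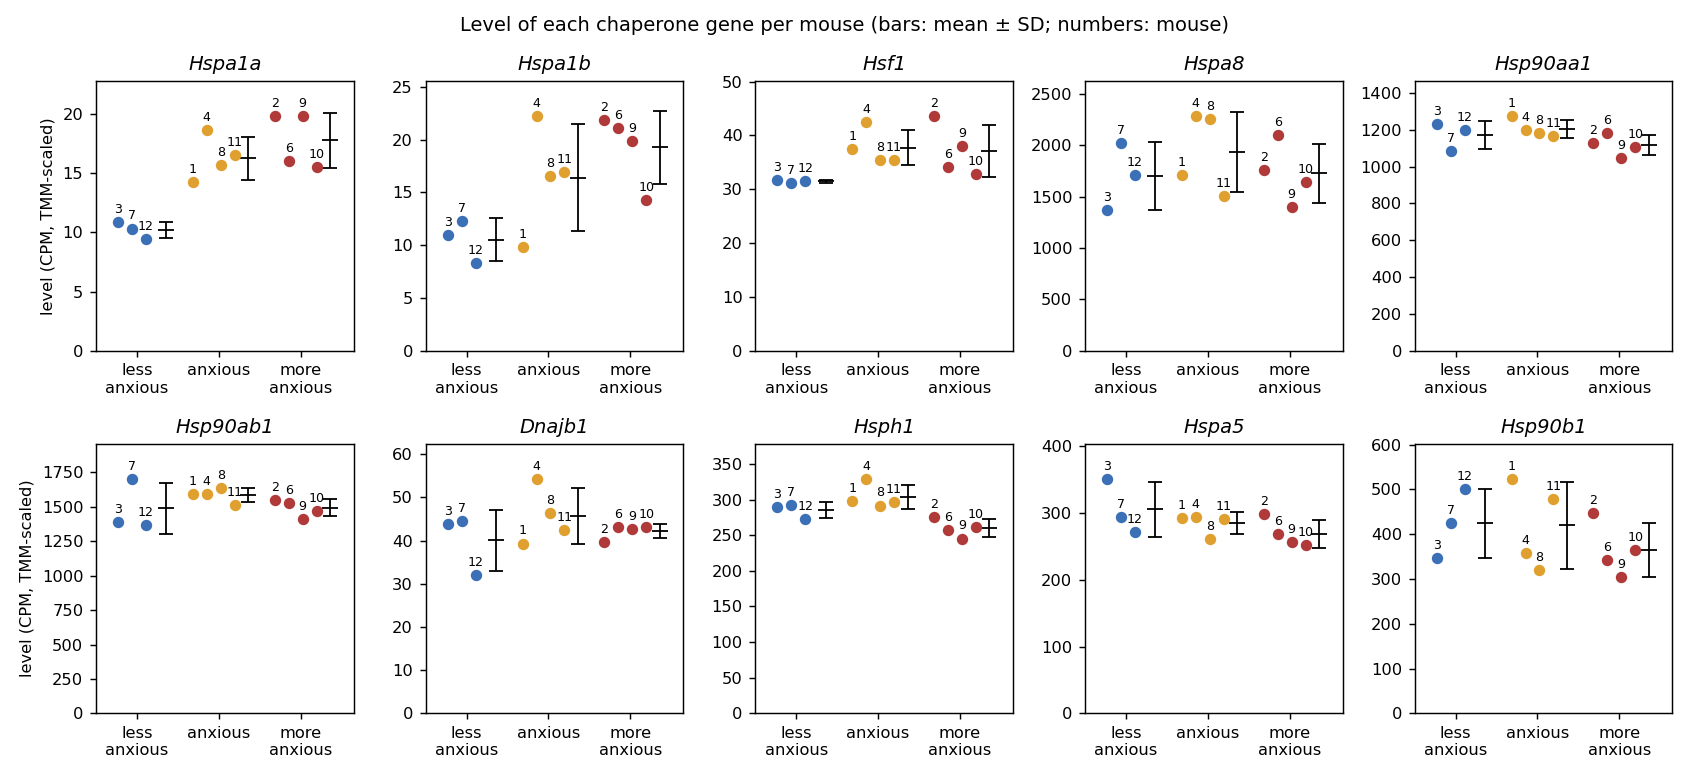
Level of each of the 10 chaperone genes (CPM on the TMM scale, vertical axes from 0) in every mouse with a predicted anxiety state. Points are mice and carry the mouse number, and the bar beside each group is the mean ± SD (3, 4 and 4 mice). The 3 less anxious mice lie below all 8 others for Hspa1a and Hsf1, while the points of Hsp90aa1, Hsp90ab1 and Hspa5 overlap between states.

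Hspa1a, one of the stress-inducible cytosolic HSP70 genes (ENSMUSG00000091971, chromosome 17, 34969190 to 34972156, minus strand, GRCm38), overlaps exons of Gm20481 on the other strand. Its level was 10.8, 10.3 and 9.44 CPM in less anxious mice 3, 7 and 12. In anxious mice 1, 4, 8 and 11 it was 14.3, 18.6, 15.7 and 16.6 CPM, and in more anxious mice 2, 6, 9 and 10 it was 19.8, 16.0, 19.8 and 15.6 CPM. All 8 other mice were above the 3 less anxious mice, and the anxious and more anxious mice overlapped. Of all genes tested, 1.74% kept the less anxious mice apart from both other states in this way, and 8.4% kept them apart from the more anxious mice. The means were 10.2 ± 0.7101 CPM (SD, n = 3), 16.3 ± 1.81 (n = 4) and 17.8 ± 2.34 (n = 4), from between 362 and 879 reads per mouse.

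The log2 fold change of Hspa1a was 0.80 with a standard error of 0.14 between more and less anxious mice (95% interval 0.50 to 1.10), and 0.69 ± 0.14 between anxious and less anxious mice. Both comparisons share the less anxious mice. Between more anxious and anxious mice it was 0.12 ± 0.12. For Hspa1a, edgeR's test of the 3 states (n = 11 mice in all) gave p = 0.000163 and an adjusted p = 0.200, and 21 genes had a smaller p. DESeq2's likelihood ratio test on the same genes gave it an adjusted p = 0.00014. Over all alternatives and each mouse left out, the fold change stayed between 0.68 and 0.88 and edgeR's adjusted p never fell to 0.05, with a lowest value of 0.102 and a highest of 0.798 without mouse 7.

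Hspa1b, the second inducible gene (ENSMUSG00000090877, chromosome 17, 34956436 to 34959238, minus strand), followed Hspa1a with wider spread. It stood at 10.96, 12.3 and 8.32 CPM in less anxious mice 3, 7 and 12, and at 9.84, 22.2, 16.6 and 16.9 CPM in anxious mice 1, 4, 8 and 11. In more anxious mice 2, 6, 9 and 10 it stood at 21.8, 21.1, 19.9 and 14.2 CPM. All more anxious mice were above all less anxious mice, but mouse 1 lay inside the range of the less anxious mice. More anxious mice differed from less anxious mice by a log2 fold change of 0.81 ± 0.24 and anxious from less anxious mice by 0.57 ± 0.24 (edgeR over the 3 states, n = 11 mice, p = 0.0167, adjusted p = 0.667). The p of Hspa1b was 0.118 without mouse 7, 0.0786 without mouse 9 and 0.0678 without mouse 12, and 0.00137 without mouse 1 (n = 10 mice each).

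Because reads of the 2 genes cannot be fully told apart, their counts were also summed before the fit. Their summed level averaged 20.7 ± 2.604 CPM in the 3 less anxious, 32.7 ± 6.84 in the 4 anxious and 37.1 ± 5.20 in the 4 more anxious mice (SD). It ran from 17.8 to 22.6 CPM in less anxious mice and from 24.1 CPM in mouse 1 to 41.7 CPM in mouse 2 in the others, with no overlap. For the sum, the log2 fold change between more and less anxious mice was 0.81 (edgeR over the 3 states, n = 11 mice, p = 0.00118, adjusted p = 0.371).

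Hsf1, which encodes the factor that binds heat shock elements (ENSMUSG00000022556, chromosome 15, 76477422 to 76501913, plus strand), had nearly the same level in all less anxious mice, with 31.7, 31.1 and 31.5 CPM in mice 3, 7 and 12. It was 37.5, 42.5, 35.5 and 35.5 CPM in anxious mice 1, 4, 8 and 11, and 43.6, 34.2, 38.1 and 32.7 CPM in more anxious mice 2, 6, 9 and 10. The less anxious mice were below all 8 others, by as little as about 1 CPM against mouse 10. Its log2 fold change was 0.24 ± 0.12 between more and less anxious mice (95% interval -0.01 to 0.48) and 0.27 ± 0.12 between anxious and less anxious mice. In edgeR's test of the 3 states Hsf1 had an unadjusted p of 0.0873 and an adjusted p = 0.837.

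Several other measures moved with the states, and their part in the levels of Hspa1a, Hspa1b and Hsf1 was not tested except as stated. These 3 genes have the highest GC content of the members (58.9%, 58.1% and 57.7% of transcript bases, against a median of 49.9% over the genes tested). The median deviation from the mean over mice of the 1583 GC-richest genes (the top decile), minus that of the bottom decile, ran on the log2 scale from -0.43 to 0.13 in less anxious, from -0.18 to 0.20 in anxious and from -0.05 to 0.30 in more anxious mice. Each mouse's trend on GC content was removed as an alternative chosen after seeing the data. The log2 fold change between more and less anxious mice was then 0.68 for Hspa1a, 0.71 for Hspa1b and 0.15 for Hsf1. In edgeR's test of the 3 states their adjusted p was 0.280, 0.804 and 0.937. Immediate early genes, which report recent neuronal activity and handling, were summed over 6 genes. They ran from 152 to 419 CPM in less anxious, 286 to 434 in anxious and 234 to 533 in more anxious mice, with 5 of 6 higher in more anxious mice. Junb alone among them had an unadjusted p under 0.05 over the 3 states (edgeR, adjusted p = 0.692). Its log2 fold change between more and less anxious mice was 1.10 ± 0.31. The level of Junb was 12.3 to 44.7 CPM in less anxious and 44.3 to 69.8 CPM in more anxious mice.

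Markers of 3 non-neuronal cell types were lower with the more anxious state, all 4 for astrocytes, all 5 for microglia and all 4 for endothelium. Of these, Slc1a3 and Flt1 had an unadjusted p under 0.05. Each p for the markers is from edgeR's test of any difference among the 3 states. Summed astrocyte markers ran from 870 to 1076 CPM in less anxious, 702 to 867 in anxious and 653 to 826 in more anxious mice. Of the neuron markers, 3 of 3 were higher and 1, Rbfox3, had an unadjusted p under 0.05. Amygdala nuclei markers were lower in more anxious mice for 5 of 5, Tac2 with an unadjusted p under 0.05, and their sum ranged from 147 to 216 CPM in less anxious and 99.5 to 210 in more anxious mice, with none at 0 in any mouse. Striatum markers, from the tissue beside the amygdala, were also lower for 5 of 5, with a median log2 fold change of -0.82. They summed to between 122 and 418 CPM in less anxious and between 85.4 and 234 CPM in more anxious mice. Drd1 and Rgs9 had an unadjusted p under 0.05 over the 3 states. Their log2 fold changes between more and less anxious mice were -0.53 ± 0.30 and -0.82 ± 0.38. Choroid plexus markers were lower for 4 of 5, with an unadjusted p under 0.05 for Kcnj13. Summed markers of excitatory neurons (2711 to 4090 against 3224 to 3892 CPM) and of inhibitory neurons (631 to 760 against 511 to 779 CPM) overlapped between less and more anxious mice, with 2 of 3 higher and 3 of 3 lower in more anxious mice and no unadjusted p under 0.05. Pituitary markers summed to up to 55.4 CPM in anxious mice and to at most 3.63 CPM in less and more anxious mice, with Prl and Gh at 0 in some mice, and all 3 of them had an unadjusted p under 0.05 over the states. Mitochondrial transcripts took between 10.6% and 15.9% of the counts of a mouse and overlapped between states.

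Hspa8, the constitutive cytosolic HSP70 (ENSMUSG00000015656, chromosome 9, 40800984 to 40810087, plus strand), holds 3 small nucleolar RNA genes within its span. Its level was 1372, 2026 and 1708 CPM in less anxious mice 3, 7 and 12, and 1712, 2284, 2254 and 1505 CPM in anxious mice 1, 4, 8 and 11. In more anxious mice 2, 6, 9 and 10 it was 1764, 2099, 1399.6 and 1642 CPM. The states overlapped throughout. Between more and less anxious mice the log2 fold change was -0.08 ± 0.10, with a 95% interval of -0.30 to 0.14 (edgeR over the 3 states, adjusted p = 0.929). It turned positive without PC1 as a covariate. It was -0.25 without mouse 7, -0.14 without mouse 10, -0.03 without mouse 12 and -0.01 without mouse 3.

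The cytosolic HSP90 genes were the steadiest of the group. Hsp90aa1, the inducible form (ENSMUSG00000021270, chromosome 12, 110690605 to 110702728, minus strand), ranged from 1085 to 1231 CPM in less anxious, 1165 to 1274 in anxious and 1048 to 1181 in more anxious mice. Hsp90ab1, the constitutive form (ENSMUSG00000023944, chromosome 17, 45567775 to 45573271, minus strand), ranged from 1368 to 1702, from 1514 to 1634 and from 1413 to 1551 CPM. Between more and less anxious mice the log2 fold change was -0.07 ± 0.09 for Hsp90aa1 (95% interval -0.27 to 0.13) and -0.03 ± 0.09 for Hsp90ab1 (-0.22 to 0.17), so a 1.75-fold change such as that of Hspa1a lay outside both intervals. For Hsp90aa1 it ran from -0.17 without mouse 7 to -0.02 without mouse 9. Neither sign was stable: it turned with GC content removed for Hsp90aa1 and without mouse 7 for Hsp90ab1.

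Of the co-chaperones, Dnajb1, the J protein that works with inducible HSP70 (ENSMUSG00000005483, chromosome 8, 83608193 to 83612653, plus strand), was 43.8, 44.5 and 32.0 CPM in less anxious mice 3, 7 and 12. It was 39.3, 54.3, 46.4 and 42.4 CPM in anxious mice 1, 4, 8 and 11, and 39.7, 43.2, 42.7 and 43.1 CPM in more anxious mice 2, 6, 9 and 10. Its log2 fold change between more and less anxious mice was 0.05 ± 0.13 and turned negative without mouse 12 (-0.08).

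Hsph1, the nucleotide exchange factor also known as HSP110 (ENSMUSG00000029657, chromosome 5, 149614287 to 149636376, minus strand), was lowest in more anxious mice. It was 290.1, 292 and 272 CPM in less anxious mice 3, 7 and 12, and 298, 329, 292 and 297 CPM in anxious mice 1, 4, 8 and 11. In more anxious mice 2, 6, 9 and 10 it was 276, 257, 245 and 261 CPM. All more anxious mice were below all anxious mice, while mouse 2 overlapped the less anxious mice. How many of all genes tested kept these states apart was not counted. Against anxious mice the log2 fold change of more anxious mice was -0.23 ± 0.08, and against less anxious mice it was -0.14 ± 0.09 (edgeR over the 3 states, n = 11 mice, p = 0.0344, adjusted p = 0.736). Leaving out mouse 1, 4, 6, 9, 10 or 11 raised the p of Hsph1 to between 0.0531 and 0.104 (n = 10 mice each), and coding the states as an ordered number gave p = 0.113 (n = 11 mice). Between anxious and less anxious mice the log2 fold change of Hsph1 was 0.09 ± 0.09.

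**Figure D2:**
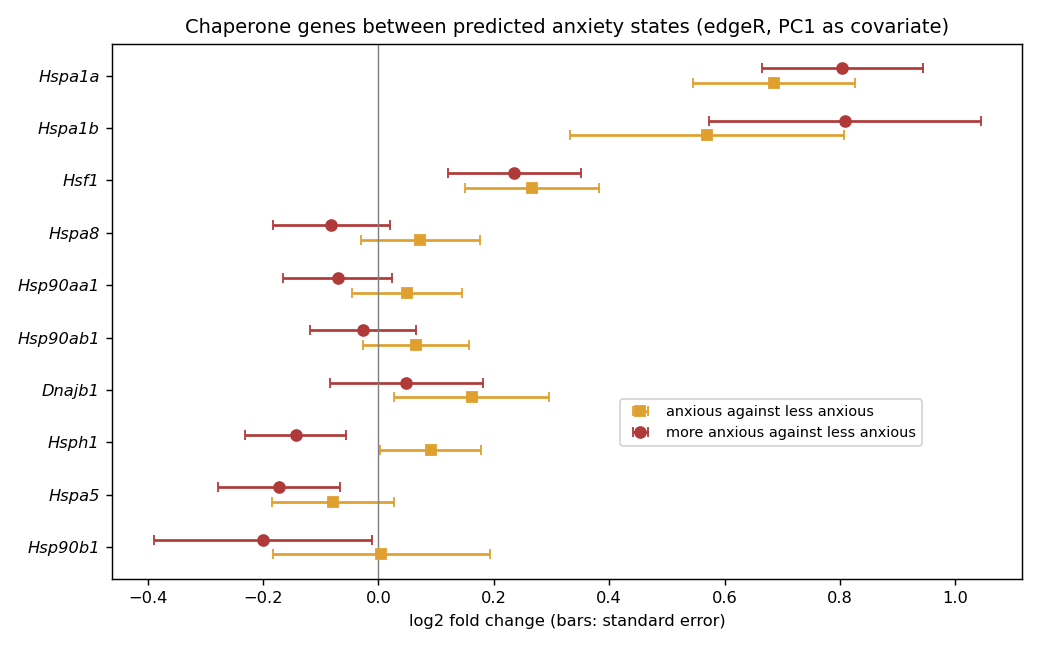
Log2 fold change of each chaperone gene against less anxious mice (horizontal axis), for anxious mice (orange squares) and more anxious mice (red circles), from edgeR's fit of 11 mice with PC1 as a covariate. Bars are the standard error. Hspa1a and Hspa1b stand at 0.57 to 0.81, Hsf1 at 0.24 to 0.27 and the other 7 genes between -0.20 and 0.16.

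In the ER, Hspa5, the HSP70 known as BiP (ENSMUSG00000026864, chromosome 2, 34771970 to 34777547, plus strand), was 351, 294 and 272 CPM in less anxious mice 3, 7 and 12. It was 293, 295, 260.4 and 291 CPM in anxious mice 1, 4, 8 and 11, and 298, 268, 257 and 252 CPM in more anxious mice 2, 6, 9 and 10. Mouse 3 had the highest level, and the states overlapped. The log2 fold change between more and less anxious mice was -0.17 ± 0.11 (edgeR over the 3 states, adjusted p = 0.931), and -0.07 without mouse 3. Hsp90b1, the ER form of HSP90 (ENSMUSG00000020048, chromosome 10, 86690209 to 86705509, minus strand), overlaps exons of 1810014B01Rik on the other strand and of Gm15344 and Gm25745 on the same strand. It was 346, 426 and 501 CPM in less anxious mice 3, 7 and 12. In anxious mice 1, 4, 8 and 11 it was 523, 357, 320.0 and 479 CPM, and in more anxious mice 2, 6, 9 and 10 it was 447, 342, 304 and 365 CPM. These ranges overlapped almost wholly, and the log2 fold change between more and less anxious mice was -0.20 ± 0.19 (edgeR over the 3 states, adjusted p = 0.955). It rested on single mice, with -0.39 without mouse 3, -0.31 without mouse 2, -0.10 without mouse 7, -0.08 without mouse 12 and -0.06 without mouse 9.

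The rest of the chaperone network was read from 7 lists with 60 genes, of which 59 had a row and all 59 were tested. With edgeR, 0 of the 59 passed an adjusted p of 0.05. Without adjustment 7 had a p under 0.05, against 6.35% of all genes tested. Of the 7, 6 were higher and 1 lower in more anxious mice, where over all genes 1064 were higher and 648 lower. DESeq2 on the same genes passed 2 of the 59 after adjustment, and 192 of all genes. Of the 59, 28 were higher and 31 lower in more anxious mice, with a median log2 fold change of -0.01. Of 13 HSP70 and HSP90 co-chaperones, 3 had an unadjusted p under 0.05, all higher: Bag6, Stip1 and Stub1. Of 14 J proteins 1 did, Dnajb6, and of 13 ER chaperones and unfolded protein response genes 2 did, Manf and Sdf2l1, both higher. Of 9 further HSP70 relatives 1 did, Hspa13, which was lower. The 6 chaperonin and small heat shock genes, the heat shock factor genes Hsf2 and Hsf4, Hsbp1, which encodes a heat shock factor binding protein, and the mitochondrial HSP90 Trap1 had none.

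The network genes with the largest differences among these 7 are described by value. Dnajb6, a J protein that keeps aggregation-prone proteins soluble, had a mean of 133 ± 6.75 CPM in the 3 less anxious, 144 ± 14.3 in the 4 anxious and 193 ± 16.6 in the 4 more anxious mice (SD). Its level ran from 126 to 139 CPM in less anxious, from 136 to 166 in anxious and from 174 to 213 in more anxious mice. The more anxious mice thus stood above all others, but the share of all genes tested that did so was not counted. The log2 fold change of Dnajb6 between more and less anxious mice was 0.52 ± 0.10, and 0.61 with GC content removed. Over the 3 states edgeR gave it p = 0.000244 and an adjusted p = 0.230 (n = 11 mice), and DESeq2 an adjusted p = 0.000549. Sdf2l1, an ER factor that works with BiP and its J proteins, was 5.80 ± 0.422 CPM in less anxious and 7.97 ± 1.15 in more anxious mice. Its log2 fold change between them was 0.47 ± 0.16 (edgeR over the 3 states, adjusted p = 0.698). Bag6, a holdase for membrane proteins on their way to insertion or degradation, was 129 ± 6.51 and 169 ± 12.3 CPM in these states. Its log2 fold change was 0.38 ± 0.10, and 0.21 with GC content removed (edgeR over the 3 states, n = 11 mice, p = 0.0728). Over the 3 states without that removal, Bag6 had an adjusted p = 0.508 in edgeR and 0.0438 in DESeq2. Hspa13, a microsomal relative of HSP70, was 51.0 ± 5.02 CPM in less anxious and 40.2 ± 1.71 CPM in more anxious mice. Its log2 fold change was -0.31 ± 0.10 (edgeR over the 3 states, adjusted p = 0.698). With GC content removed it was -0.22 (edgeR over the 3 states, n = 11 mice, p = 0.0764). With single mice left out (n = 10 mice each), the unadjusted p rose above 0.05 for Hspa13 without mouse 7 (p = 0.111), 9 (p = 0.132) or 10 (p = 0.106), for Sdf2l1 without mouse 7 (p = 0.143) or 12 (p = 0.0860), and for Bag6 without mouse 7 (p = 0.0646).

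The question put to behavior was whether a member's level followed what each mouse did, measured apart from its RNA. Each of 7 measures was fitted on its own, and a slope is the log2 change per SD of the measure. The measures were open-arm time and total entries in the EPM, time and distance in light in the LD, and the SIT's box:zone ratio over 3, 5 and 10 min. The lower the first 4, the more a mouse kept to sheltered places or stayed still. PC2, from which the states were cut, was chosen by the paper for its correlation with EPM and LD measures. Slopes on these 4 are thus no separate support for differences between the states. In edgeR's tests 0 of the 10 members passed an adjusted p of 0.05 for any measure, nor did any with DESeq2. Of all genes, the share that passed was 0% for open-arm time, 0% for total entries, 0.00742% for time in light, 0% for distance in light, and, for the social ratio over 3, 5 and 10 min, 0.015%, 0.0111% and 0.0223%. Without adjustment 2 of 10 members had a p under 0.05 for total entries (6.97% of all genes), 1 for distance in light (5.8%) and 2 for the 3 min ratio (7.65%). There were 0 for open-arm time (5.84%), time in light (3.55%), the 5 min ratio (6.56%) and the 10 min ratio (8.05%).

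**Figure D3:**
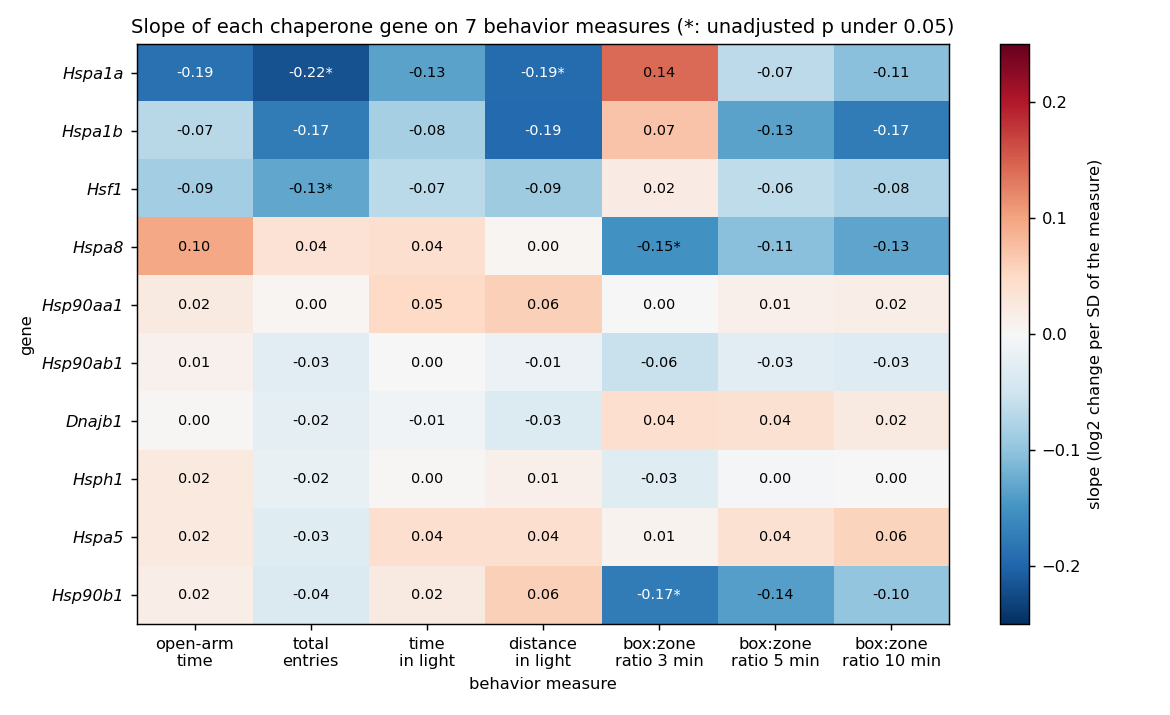
Slope of each chaperone gene (rows) on each of 7 behavior measures (columns), in log2 change per SD of the measure over 11 mice (10 for the 3 min ratio). Blue is a lower level with a higher measure, red a higher level, and stars mark an unadjusted p under 0.05. Hspa1a, Hspa1b and Hsf1 have negative slopes on all 4 EPM and LD measures, from -0.22 to -0.07, while slopes of Hsp90aa1 lie between 0.00 and 0.06.

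Hspa1a had its steepest slope on total entries, -0.22 ± 0.09 per SD of 9.85 entries (edgeR, n = 11 mice, p = 0.0233, adjusted p = 0.646). Mouse 2, with 6 entries, had 19.8 CPM, and mouse 12, with 42 entries, had 9.44 CPM. Without mouse 12 the slope was -0.14 (n = 10 mice, p = 0.132), and without mouse 2 it was -0.19 (n = 10 mice, p = 0.0775). Mouse 6, labelled more anxious, made 36 entries and had 16.0 CPM. It also had the highest open-arm time (29.2%), time in light (46.6%) and distance in light (41.9%) of all mice, so its label went against these measures. On distance in light, the share of the distance travelled in the lit chamber, the slope of Hspa1a was -0.19 ± 0.08 per SD of 7.89 percentage points (n = 11 mice, p = 0.0386, adjusted p = 0.848). It was -0.13 (n = 12 mice, p = 0.193) with mouse 5, which covered 16.6% of its distance in the light and had 11.03 CPM of Hspa1a. Without mouse 2, 3, 4, 9 or 12 this slope lay between -0.19 and -0.15, with p from 0.0524 to 0.118 (n = 10 mice each), and without mouse 6 it was -0.27 (n = 10 mice, p = 0.00468). On open-arm time its slope was -0.19 (n = 11 mice, p = 0.0520).

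Hsf1 also had its steepest slope on total entries, -0.13 ± 0.04 (edgeR, n = 11 mice, p = 0.00715, adjusted p = 0.597). It had 43.6 CPM in mouse 2 with 6 entries, 37.5 CPM in mouse 1 with 15 entries and 31.5 CPM in mouse 12 with 42 entries. Leaving out each mouse in turn gave slopes between -0.14 and -0.09, the weakest without mouse 2 (n = 10 mice, p = 0.0662). Hspa1b had a slope of -0.17 on total entries and -0.19 on distance in light, with unadjusted p of 0.222 and 0.135.

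**Figure D4:**
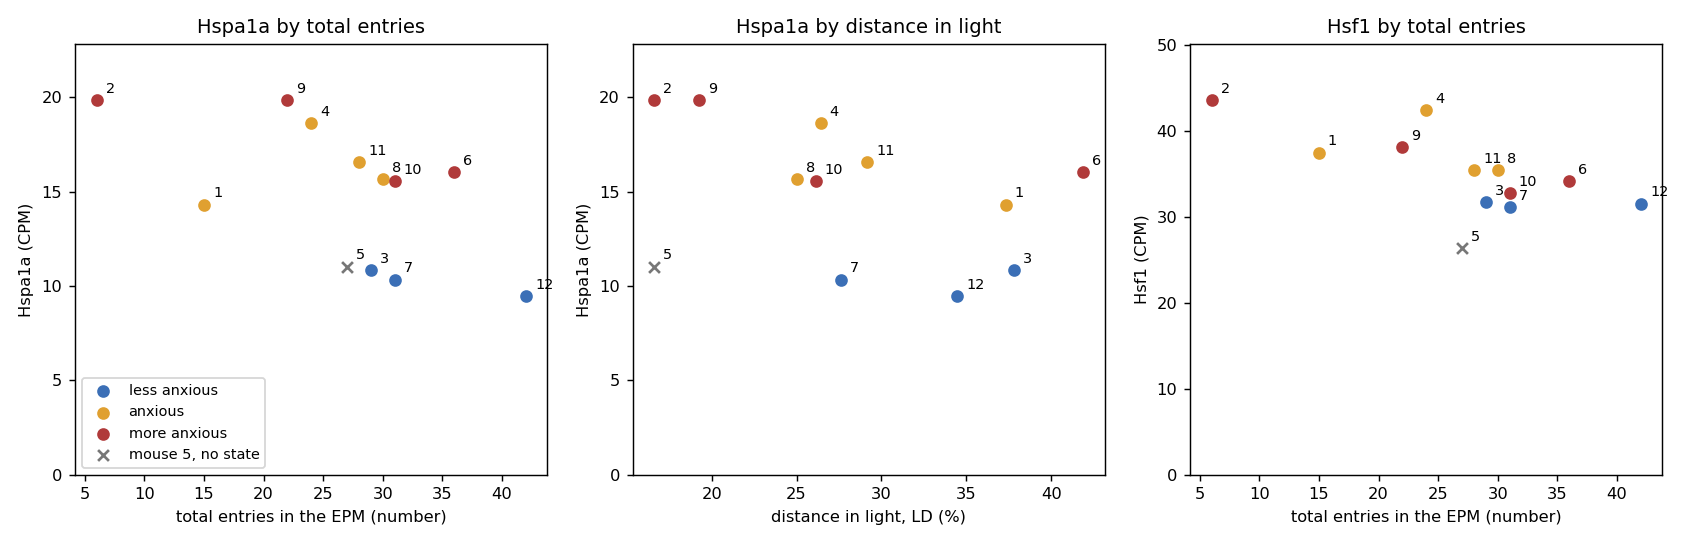
Level of Hspa1a against total entries in the EPM (left) and distance in light in the LD (middle), and of Hsf1 against total entries (right), in CPM with axes from 0. Each point is a mouse with its number, colored by predicted anxiety state, and the cross is mouse 5. Among the mice with a state, the less anxious ones sit lowest in each panel, and more anxious mouse 2, with 6 entries, sits at its top left.

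In the social test the box stands for direct contact beside the stranger and the zone for more distant company in the stranger's chamber, and the labels do not say how the ratio was formed. The members with an unadjusted p under 0.05 were Hspa8 and Hsp90b1, both with negative slopes over the first 3 min in 10 mice. For Hspa8 the slope was -0.15 ± 0.07 (n = 10 mice, p = 0.0401, adjusted p = 0.622), and it was -0.02 with PC1 as a covariate. Its unadjusted p was no longer under 0.05 without mouse 3, 6, 7, 9 or 10. For Hsp90b1 it was -0.17 ± 0.07 (n = 10 mice, p = 0.0282, adjusted p = 0.587), -0.31 (adjusted p = 0.188) with PC1, and -0.12 without mouse 9. Its unadjusted p was no longer under 0.05 without mouse 3, 9 or 12. Slopes of Hspa1a on the ratio were 0.14 ± 0.11 over 3 min, in 10 mice without mouse 4, and -0.07 ± 0.11 and -0.11 ± 0.11 over 5 and 10 min in 11 mice. None had an unadjusted p under 0.05, and the difference between them was not tested.

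Levels of the members were compared with each other as a description. Over the 11 mice, which share their depth scaling, Pearson's r of log2 CPM was highest for Hspa1a with Hspa1b (0.87, and 0.76 after each state's mean was removed), genes that also share reads. It was 0.83 for Hspa1a with Hsf1 (0.76 within states), 0.72 for Hspa8 with Hsp90ab1 (0.68), 0.67 for Hspa1b with Hsf1 (0.44) and 0.61 for Hspa1b with Dnajb1 (0.69). No other pair was above 0.6. Hsph1 had an r of -0.11 with Hspa1a, and 0.46 within states. Hsp90b1 and Dnajb1 had an r of -0.61 (-0.73 within states). For the ER members Hspa5 and Hsp90b1 it was 0.23 (0.06 within states).

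Among 12149 other genes with a mean of at least 5 CPM, those most like Hspa1a and Hspa1b summed were Mrpl34 (r = 0.94), Upf1 (0.94) and Gm13889 (0.93), whose GC content lies between 57.9% and 66.0%. Those most like Hsp90aa1 were Tmem69, Zfp597 and Srek1ip1 (r from 0.87 to 0.88), with a GC content between 40.2% and 41.3%. Those most like Hspa8 were Gm11966, Nxf1 and Lsm10 (0.91 to 0.93), and those most like Hspa5 were Grin2a, Aph1b and Chl1 (0.92 to 0.96), of which Grin2a encodes an NMDA receptor subunit. All 12 had within-state r values of at least 0.776.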

How the data were processed

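Reads were trimmed by the authors with cutadapt where needed. STAR alignments to mm10 served quality control, and Salmon abundances were brought to gene level by tximport. The deposited values are these estimated counts in whole numbers, without normalization, for 47729 genes in 12 mice. Tool versions, annotation release and strand setting were not given in the sources used here. Names and coordinates came from GENCODE M21 (GRCm38), which held 99.1% of the genes.

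Groups and behavior values came from GEO's labels. The members and lists were chosen with earlier results of these data known. R 4.3.3 with edgeR 4.0.16 (quasi-likelihood F-test, robust, TMM) was fitted on all genes with at least 10 reads in total, with 11 mice and PC1 (19.9% of variance) as a covariate, and Benjamini-Hochberg adjustment over all genes. Behavior fits had no covariate. DESeq2 1.42.0 was an alternative. log2 CPM used a prior count of 2. Besides the members, named genes were up to 3 network genes with the largest rise and fall at an unadjusted p under 0.05, and the 3 genes most like each of 4 member profiles. Procedures were tested on simulated data. Libraries were distinct (mean chi-square per gene at least 19.3 over 66 pairs). Each mouse is 1 animal. Other alternatives covered size factors, filters, covariates, coding, ranks, GC content and each mouse left out.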

Additional observations from a re-analysis of the deposited data

Results flagged for a closer look

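Among the 20 sets of 4 values (10 members in anxious and in more anxious mice), 2 had 1 mouse far from the other 3, where chance alone marks about 1 set in 20. Hspa5 in mouse 8 was 260.4 CPM, below 291 to 295 CPM in the other anxious mice. Dnajb1 in mouse 2 was 39.7 CPM, below 42.7 to 43.2 CPM in the other more anxious mice. The 3 less anxious mice were too few for this check.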

How the results depend on the processing

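Of 360 values of single genes under the alternatives, 350 kept their direction and side of the threshold. On the same 26963 genes, a gene set chosen for DESeq2 after seeing the data, DESeq2 passed 192 genes, 1 member (Hspa1a) and 2 network genes (Dnajb6 and Bag6). There edgeR passed 2, 0 and 0. On all 34511 genes with a read it passed 186, 1 and 2. It gave an adjusted p to 16508 and 18453 genes in these fits. edgeR passed 9 genes without a count filter, 22 with the states coded as an ordered number and 1 without robust estimates. It passed 0 with filterByExpr (1484 at an unadjusted p under 0.05) and 0 without PC1 (1610 at an unadjusted p under 0.05). Leaving out each mouse gave 0 to 5 genes (0 without mouse 9, with 1157 at an unadjusted p under 0.05) and 1 to 3 members with an unadjusted p under 0.05. The log2 fold change between more and less anxious mice turned positive for Hspa8 without PC1 (0.016) and for Hsp90aa1 with GC content removed (0.00095), and over mice left out it ran from -0.069 to 0.031 for Hsp90ab1 and from -0.082 to 0.21 for Dnajb1. The cause was not tested. No member passed for any behavior measure under any alternative. No paired analysis was possible because each mouse is 1 library and the numbers name mice only. The states have 3 or 4 mice each, and reads shared between Hspa1a and Hspa1b limit what can be said of either alone.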

Other observations

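Mouse 5, which has no predicted anxiety state and which the paper left out as an outlier, lay outside the range of the others in 6 of the 10 members. The scale was set over all 12 mice. For how many of all genes it did so was not counted, so the 6 are not read as a trait of the chaperones. In mouse 5 the levels of Hsp90aa1 (1395 CPM), Hspa5 (370.4 CPM), Hsp90b1 (582 CPM) and Hsph1 (381 CPM) were above those of all 11 other mice. Its levels of Hspa1b (7.95 CPM) and Hsf1 (26.3 CPM) were below all of them. Hspa1a (11.03 CPM), Hspa8 (1645 CPM), Hsp90ab1 (1478 CPM) and Dnajb1 (45.9 CPM) lay within their range. Its library had at least 1 read in 23768 genes, against 26378 to 28196 in the others.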
